A study of Mus musculus with 14 samples.

Results

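Gene expression in the AB1 tumour microenvironment was compared between day 14 and day 4 after tumour inoculation. AB1 is a transplantable mouse mesothelioma cell line. The comparison used 11 of the 14 samples of the series, 5 of tumour microenvironment at day 14 and 6 at day 4, and it was chosen by these labels alone. The other 3 samples were control tissue, and their values are given after those of the tumour samples. All mice were of the BALB/C strain and are listed as 8 weeks old, with no drug or gene alteration named for any group. Each sample was total RNA measured on its own 1-colour Illumina bead array. The labels do not say how much of each sample was tumour, which organ the control tissue came from or whether each sample was a separate animal, so the p-values rest on how far these samples differ among themselves, part of which may be technical. In such bulk samples, fewer cells of a type and less RNA per cell cannot be told apart.

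A growing tumour shares its tissue with resident cells, blood vessels, fibroblasts and immune cells that enter it. Interferon gamma, released by activated T cells and natural killer cells, acts in part through the transcription factor IRF1. Its signal raises guanylate-binding proteins, antigen presentation genes and the chemokine CXCL9, which attracts more T cells. Macrophages are the most common immune cells of many mesotheliomas, and fibroblasts lay down and crosslink the tumour matrix.

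At day 14 the samples held far more interferon-induced GTPase, CXCL9 and immunoproteasome RNA than at day 4, with more RNA of complement C1q and lysozyme. They held less RNA of the cornified layer of the epidermis and of fat cells. Under median scaling, 4 of 7 named late cornified envelope genes and 2 of 7 named fat cell genes remained called. Of 22 named skeletal muscle genes 10 were lower, but the muscle level overlapped between the days and none of these calls held under median scaling. A separate set of genes, led by the hair follicle keratin Krt27, was far lower at day 4 than at day 14 or in control.

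Of the 45281 probes on the array, 13868 (30.6%) were detected on at least 3 of the 11 arrays and were tested. A probe was called at a limma adjusted p under 0.05 (lmFit and eBayes, two-sided, Benjamini-Hochberg over all probes tested). The test called 2565 probes, or 18.5%, with 1273 higher at day 14 (9.18%) and 1292 lower (9.32%). At an unadjusted p under 0.05, 3868 probes passed. The arrays of both days did not overlap for 1554 probes (11.2%), with day 14 above day 4 for 5.83% of the probes and below it for 5.38%. Values are normalized log2 intensities, so a difference of 1 is a 2-fold difference. Quantile normalization, used here, gives every array the same distribution. Median scaling, which only aligns the array medians, called 689 probes, of which 83.6% were higher at day 14, against 49.6% under quantile normalization. It moved the median difference of all probes by 0.12, and the balance between higher and lower calls depends on the scaling. Some gene lists moved more. The median of oxidative phosphorylation genes went from -0.06 to 0.25 and that of proteasome subunits from 0.29 to 0.57. That of interferon gamma genes went from 1.19 to 1.33. No called probe was called in the opposite direction under median scaling.

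Gene names were at hand for 6083 of the tested probes, which stood for 5033 genes. Every named probe was detected on at least 4 of the day 14 and 4 of the day 4 arrays, so genes switched off on either day cannot be named here. With the probe of highest mean taken for each gene, 661 genes (13.1%) were higher and 725 (14.4%) lower at day 14. These shares are the background for the counts of called genes in each list and family below. At least 4-fold changes were found for 22 genes higher and 36 lower. Complete separation of the arrays was found for 404 genes higher (8.03%) and 429 lower (8.52%). The median log2 difference over all genes was 0.02, and the median standard error was 0.17. Among genes called higher, the control mean lay below both days for 249, between them for 343 and above both for 69. Among genes called lower, it lay above both days for 154, between them for 499 and below both for 72.

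On average 10988 ± 2863 probes were detected on the 5 day 14 arrays, 10568 ± 1758 on the 6 day 4 arrays and 11376 ± 621.8 on the 3 control arrays (mean ± SD). The difference of 419.6 probes between the days was within the spread (exact permutation test, two-sided, p = 0.766, where the smallest possible p was 0.00216). Day 14 replicate 5 had 7059 detected probes and day 4 replicate 2 had 8257, the lowest of their days. Neither array lay with the other day, but both stood apart from their own on the second principal component. The first component held 48.6% of the variance and put the day 14 arrays at 21.88 to 51.82 and the day 4 arrays at -34.9 to -24.08.

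**Figure D1:**
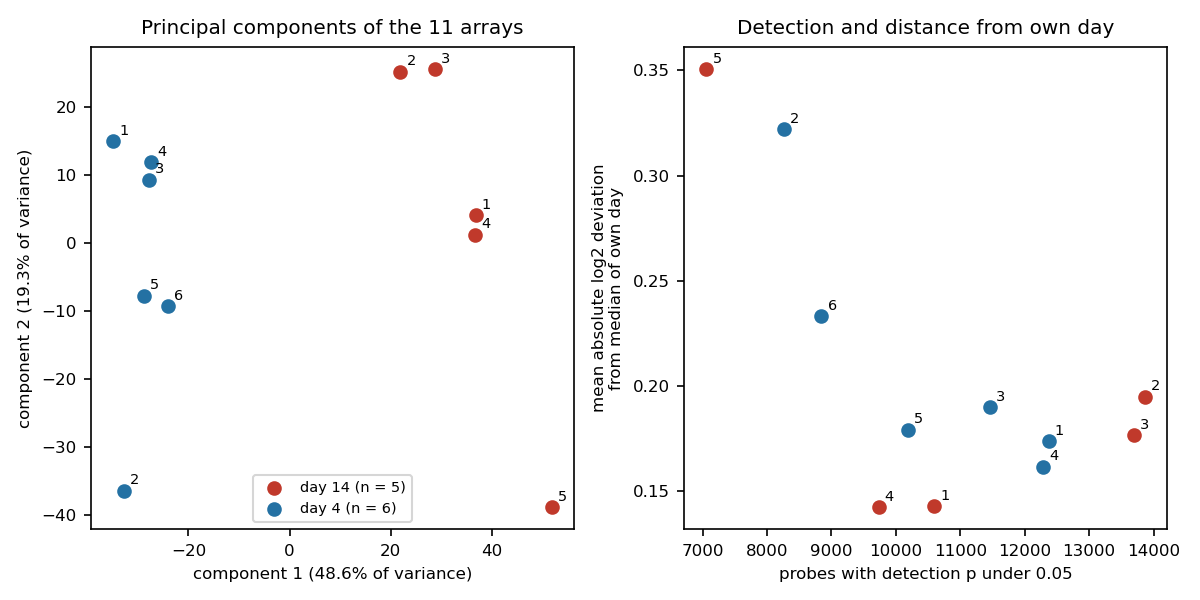
Left, scores of the 11 arrays on the first and second principal component of the tested probes, in arbitrary units, with replicate numbers; day 14 and day 4 arrays lie apart on the first component, which holds 48.6% of the variance. Right, mean absolute log2 deviation of each array from the median of its own day against its number of detected probes; day 14 replicate 5 and day 4 replicate 2 deviate most and have the fewest detected probes, 7059 and 8257.

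**Figure D2:**
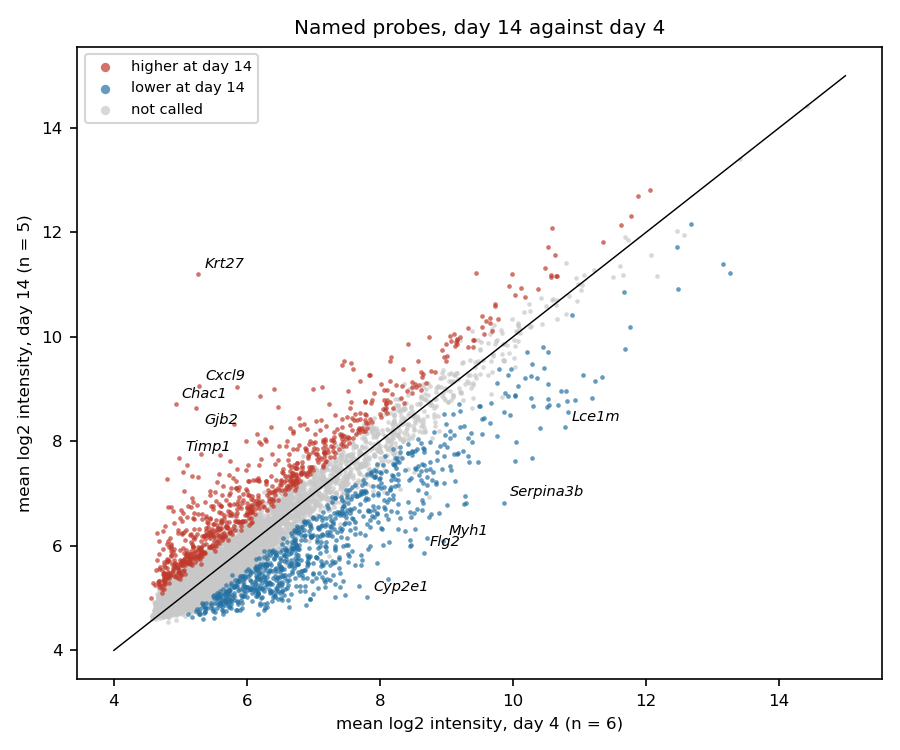
Mean log2 intensity at day 14 (vertical) against day 4 (horizontal) for each of the 6083 named probes, with the line of equal values. Red points were called higher at day 14 and blue points lower, and Krt27 lies farthest from the line.

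Interferon-induced genes rose together. Of the 25 genes listed for interferon gamma and class I presentation, 14 had a name on the array and 11 of these were higher at day 14, none was lower, and their median log2 difference was 1.19. The 11 were Cxcl9, Igtp, Gbp3, Irf1, Gbp2, Psmb10, Psmb8, Tap2, Cd274, H2-K1 and B2m. Members of a list beyond its 4 largest changes, here and in the paragraphs that follow, were named after their values had been seen. Under median scaling 7 of the 14 were called, all higher, with a median of 1.33. The mean log2 level of the list was 7.42 to 8.44 on the day 14 arrays and 6.44 to 6.81 on the day 4 arrays, without overlap, and 6.09 to 6.17 in control. Its summed intensity was 4903.3 to 9263.2 at day 14, 3054.3 to 4364.1 at day 4 and 2540.4 to 2608.3 in control.

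Cxcl9 encodes a chemokine that draws CXCR3-bearing T cells and is a classical marker of interferon gamma. Its log2 intensity was 9.54, 8.46, 9.61, 9.59 and 8.11 at day 14, against a lowest, median and highest of 4.58, 5.35 and 5.85 at day 4. The day 14 arrays lay far above every day 4 array, and the control mean of 5.00 ± 0.10 (SD, n = 3) was near that of day 4. The difference was 3.78 with a standard error of 0.27, or 13.7-fold (limma adjusted p = 2.31e-08). Irf1, the transcription factor that relays the interferon gamma signal, stood at 9.53, 9.03, 9.91, 9.73 and 9.13 at day 14, against 7.10, 7.33 and 7.78 (lowest, median, highest) at day 4. It was 4.10-fold higher (standard error 0.17 on the log2 scale, limma adjusted p = 1.88e-07), and a dimmer probe of Irf1 was 2.46-fold higher.

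The interferon-induced GTPases coat vacuoles that hold microbes and help to break them open. Igtp was at 7.54, 6.66, 8.18, 7.89 and 7.49 at day 14 and at 4.81, 5.07 and 5.34 (lowest, median, highest) at day 4. It was 5.49-fold higher (limma adjusted p = 1.59e-07). All 3 named guanylate-binding proteins were higher, Gbp2b by 4.56-fold, Gbp3 by 4.45-fold and Gbp2 by 4.03-fold. Gvin1, a very large GTPase, was 4.01-fold higher, and Irgm2 was 3.46-fold higher (limma adjusted p = 0.000135). Irgm1, which keeps other members of its family from acting on the cell's own membranes, did not pass, with a log2 difference of 0.23 and an adjusted p of 0.559. Its probes disagreed, and a dimmer one was 3.03-fold higher (adjusted p = 7.6e-05). Near-identical family members can share a probe's signal, so single members of the Gbp family are uncertain.

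Psmb8 and Psmb10 encode 2 of the catalytic subunits that turn the proteasome into the immunoproteasome, which cuts peptides for class I molecules. Psmb10 was at 7.78, 6.60, 7.71, 7.42 and 7.27 at day 14, against 5.57, 5.70 and 5.92 (lowest, median, highest) at day 4, and was 3.09-fold higher (limma adjusted p = 2.97e-06). Psmb8 was 2.36-fold higher (limma adjusted p = 0.00019). Of 28 named proteasome subunits, a family chosen after values were seen, 8 were higher and none was lower, and only Psmb8 and Psmb10 remained called under median scaling. Tap2, which carries peptides into the endoplasmic reticulum, was 2.20-fold higher, with overlap between the days. Of the class I chains, H2-K1 was 1.60-fold higher (limma adjusted p = 0.0171), B2m was 1.52-fold higher (adjusted p = 0.0422), and H2-D1 had a log2 difference of 0.15 (adjusted p = 0.659). Neither H2-K1 nor B2m was called under median scaling, although their log2 differences were larger there, 0.84 against 0.68 and 0.82 against 0.60. A further B2m probe did not pass (adjusted p = 0.315). Nlrc5, the class I transactivator, had a difference of -0.12 (adjusted p = 0.801).

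Cd274 encodes PD-L1, the ligand of the inhibitory T cell receptor PD-1, and is induced by interferon gamma. It was at 7.43, 6.81, 7.76, 7.74 and 6.91 at day 14, against 5.87, 6.41 and 6.69 (lowest, median, highest) at day 4. The days did not overlap, and the level was 1.95-fold higher (limma adjusted p = 0.00171), but the call was lost under median scaling (adjusted p = 0.0736). The log2 difference was larger there, 1.26 against 0.97. Within day 14, replicates 2 and 5 were the lowest for Cxcl9, Irf1, Gbp3, Gbp2, Gbp2b and Cd274. Replicate 2 was also the lowest for Igtp and Psmb10. The same replicate had the highest keratinocyte, adipocyte and muscle marker levels of its day. Replicate 5, the lowest for Cxcl9 and Gbp3, had the lowest muscle marker level. The part of these markers in the interferon levels was not tested.

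Promoters of interferon genes carry short recognised motifs. The motifs searched were the gamma-activated site, TTCNNNGAA, and the interferon-stimulated response element, taken as GAAA and GAAA with any 2 bases between them, which IRF proteins bind. Both were searched on both strands in windows of the 250 bases before each gene's start (RefSeq, build GRCm38.p6). The gamma-activated site was found in 7.02% of 32851 windows and the response element in 2.98%, with either in 9.66%. Of the 14 named genes of the interferon list, 12 had a window, and either motif was found for 7 of them. Of the 10 called higher that had a window, 3 held the gamma-activated site and 4 the response element, with 6 holding either. All 6 named interferon-induced GTPase genes that had a window held the response element, among them Irgm1. Windows of Cxcl9, Cd274, Psmb10 and H2-K1 held neither motif. These are matches of letters only. The 110 bases just before the start are printed for 5 of the genes called higher, because their upstream letters show how these motifs lie, with the motif in capitals. All are on the plus strand: Irf1 at chr11:53769904-53770013, Igtp at chr11:58199446-58199555, Irgm2 at chr11:58214867-58214976, Gbp3 at chr3:142559934-142560043 and Psmb8 at chr17:34198085-34198194.
Irf1: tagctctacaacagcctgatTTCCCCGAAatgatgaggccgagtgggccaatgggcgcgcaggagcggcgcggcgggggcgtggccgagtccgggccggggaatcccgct
Igtp: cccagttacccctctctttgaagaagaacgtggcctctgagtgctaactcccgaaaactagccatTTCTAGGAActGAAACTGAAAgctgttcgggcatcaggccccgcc
Irgm2: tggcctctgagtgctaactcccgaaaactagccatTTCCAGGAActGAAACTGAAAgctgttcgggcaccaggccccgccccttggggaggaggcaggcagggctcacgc
Gbp3: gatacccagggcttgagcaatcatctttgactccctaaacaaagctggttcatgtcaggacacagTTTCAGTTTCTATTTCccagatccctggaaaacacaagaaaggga
Psmb8: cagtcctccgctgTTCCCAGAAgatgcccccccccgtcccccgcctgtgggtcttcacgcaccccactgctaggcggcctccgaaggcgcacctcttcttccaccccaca
The Irf1 and Psmb8 windows held the gamma-activated site, which began 90 bases before the start in Irf1 and 97 bases before it in Psmb8. Igtp and Irgm2, neighbours on chromosome 11, held both motifs in the same order with their first bases 11 apart. Gbp3 held 2 overlapping copies of the response element on the minus strand. Of both Gbp3 windows and both Irf1 windows in RefSeq, only the one printed for each gene held a motif.

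Genes linked more to type I interferon were named for only 4 of 20, and 3 of these were higher. Oasl2, an oligoadenylate synthetase-like antiviral protein, was at 7.96, 7.26, 8.59, 8.66 and 7.56 at day 14, against 5.15, 6.13 and 6.61 (lowest, median, highest) at day 4. It was 4.05-fold higher (limma adjusted p = 6.36e-05) and without overlap. Rsad2, the antiviral enzyme viperin, was 2.30-fold higher (adjusted p = 0.0138), and Oas2 was 1.95-fold higher (adjusted p = 0.00192). Usp18, which dampens type I interferon signalling, had a difference of 0.51 (adjusted p = 0.199). Only Oasl2 kept its call under median scaling.

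Macrophage genes rose in part. Of 21 listed, 9 were named, 4 were higher and 1 was lower, with a median log2 difference of 0.77, and the mean level of the list overlapped between the days (6.78 to 7.43 at day 14, 6.32 to 7.13 at day 4, 5.97 to 6.23 in control). Its summed intensity did not overlap, at 3446.6 to 6832.8 at day 14 and 1763.9 to 3172.3 at day 4. Lyz1, a lysozyme gene, was at 12.45, 11.93, 12.12, 12.45 and 11.44 at day 14, against 10.25, 10.45 and 11.05 (lowest, median, highest) at day 4. It was 2.82-fold higher (limma adjusted p = 2.2e-05), although the near-identical Lyz2 can share its signal. A dimmer Lyz1 probe differed by 0.08 (adjusted p = 0.902). For Lyz2 the brighter probe was 1.81-fold higher (adjusted p = 0.0412) and the other 3.16-fold higher. C1qb and C1qc encode chains of complement C1q, which tissue macrophages make. C1qb was 2.91-fold higher (adjusted p = 0.000126) and C1qc 2.22-fold higher (adjusted p = 0.000239), both without overlap.

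Other macrophage markers were not called or were lower. Csf1r, the receptor for the macrophage growth factor, differed by 0.20 (adjusted p = 0.471), the mannose receptor Mrc1 by 0.11 (adjusted p = 0.834) and Arg1, the arginase of suppressive macrophages, by -0.27 (adjusted p = 0.28). For Adgre1, an adhesion receptor gene of mature macrophages, the probes disagreed: the brighter one had a difference of 0.77 (adjusted p = 0.17), and the other was 2.32-fold higher (adjusted p = 0.000395). Cd163, the scavenger receptor for haemoglobin on resident macrophages, was at 6.39, 6.27, 5.97, 5.76 and 6.02 at day 14, against 6.11, 7.17 and 7.68 (lowest, median, highest) at day 4. It was 2.04-fold lower (limma adjusted p = 0.00201), a call that median scaling did not make (adjusted p = 0.338).

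Class II presentation, by which macrophages, dendritic cells and B cells show antigen to helper T cells, had 8 of 10 genes named. Of these 2 were higher and none was lower, with a median of 0.57. Cd74, the invariant chain, was 1.63-fold higher (limma adjusted p = 0.0312) and the protease Ctss 1.51-fold higher (adjusted p = 0.0298). A further Cd74 probe was 1.75-fold higher without overlap (adjusted p = 0.017), and another was not called (adjusted p = 0.588). H2-Eb1 differed by 0.73 (adjusted p = 0.0676) and H2-Ab1 by 0.59 (adjusted p = 0.139). The calls of Ctss and of the brightest Cd74 probe were lost under median scaling, although their log2 differences were larger there, at 0.89 and 1.06. They were also lost when any of several single arrays was left out, among them day 14 replicate 1. The class II rise is therefore near the limit of these 11 arrays.

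Lymphocyte markers could be judged for few genes. Cd3e, a chain of the T cell receptor complex, was at 5.98, 5.18, 6.12, 5.78 and 5.16 at day 14, against 4.58, 4.95 and 5.71 (lowest, median, highest) at day 4. The days overlapped, the level was 1.57-fold higher (limma adjusted p = 0.0356), and the call was lost without any of 8 single arrays, 5 of day 4 and 3 of day 14. Cd8b1 differed by 0.03 (adjusted p = 0.942). Foxp3, the factor of regulatory T cells, differed by -0.22 (adjusted p = 0.412), and perforin, Prf1, by -0.35 (adjusted p = 0.389). Thy1, carried by T cells and by fibroblasts, was 1.73-fold lower (adjusted p = 0.0165), a call lost under median scaling. Siglech, a marker of plasmacytoid dendritic cells, was 2.34-fold higher (adjusted p = 0.0268) with overlap, and that call was lost without any of 5 single arrays. No B cell gene of 13 was named, and of the T cell, regulatory T cell and cytotoxic lists 3 of 16, 1 of 7 and 1 of 13 were.

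Chemokines showed both directions. Of 27 listed, 9 were named, with 4 higher and 1 lower and a median of 0.51. Besides Cxcl9, the monocyte-attracting Ccl8 was at 7.85, 7.42, 8.30, 7.97 and 8.02 at day 14 and at 6.10, 6.38 and 6.94 (lowest, median, highest) at day 4, or 2.71-fold higher (limma adjusted p = 1.32e-05). Cxcl16 was 1.89-fold higher and Ccl9 was 1.68-fold higher, and both calls were lost under median scaling (adjusted p = 0.0624 and 0.0679). Their log2 differences were larger there, at 1.02 and 1.00. Ccl21a, made by lymphatic vessels and lymph node stroma to guide CCR7-bearing cells, went the other way. It was at 5.96, 6.22, 5.47, 6.11 and 4.90 at day 14, against 7.25, 7.70 and 8.36 (lowest, median, highest) at day 4, without overlap, and was 3.99-fold lower (adjusted p = 0.000105).

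Of 15 complement genes 9 were named. C1qb, C1qc and properdin, Cfp, were higher, and the C1 inhibitor Serping1 was 1.60-fold lower (limma adjusted p = 0.00904). The calls of Cfp and Serping1 were lost under median scaling. The inflammatory cytokine list had 4 of 19 genes named. Il33, an alarm signal of barrier cells, was 1.48-fold higher (adjusted p = 0.0248) and Il18 was 1.501-fold lower (adjusted p = 0.00739), and median scaling made neither call.

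**Figure D3:**
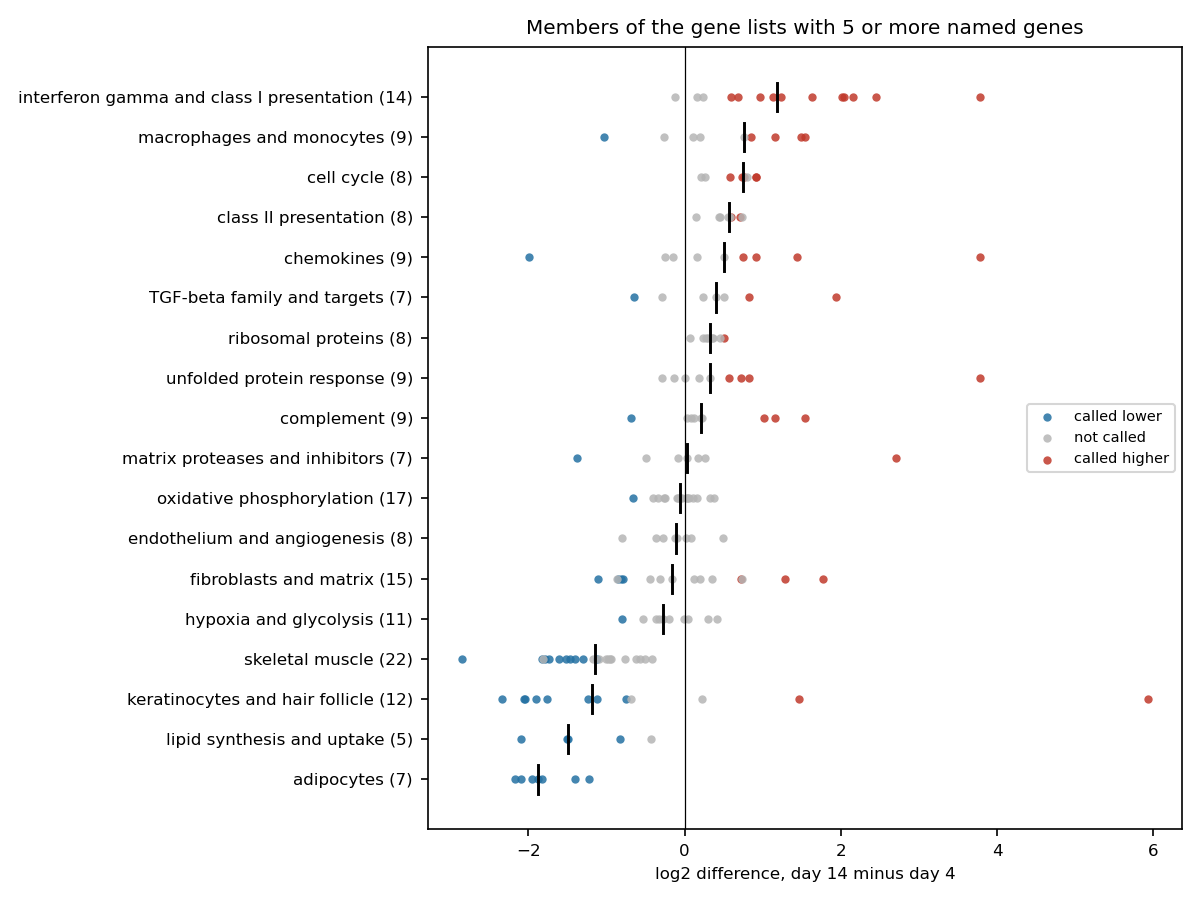
Log2 difference, day 14 minus day 4, of each named gene in the gene lists with at least 5 named genes, with the number named in brackets. Red points were called higher, blue points lower and grey points were not called, and a black tick marks the median of the list; interferon gamma genes have the highest median, 1.19, and adipocyte genes the lowest, -1.88.

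Among all named genes, the 15 highest and the 15 lowest at day 14 were taken from those called without overlap and detected on every array of the brighter day. The 15 highest fell into patterns that differ in the control samples. In Krt27, Chac1, Gjb2, Lrrc15 and Slc7a8 the control mean lay above day 14, and day 4 was far below both. In Timp1, Lgals1, Masp1, Plac8, Amigo2, Igtp, Cxcl9, Gbp2b and Gbp3 the control mean lay below the day 4 mean. Csrp2 alone had a control mean between the days. This grouping was made after the values had been seen.

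Krt27 encodes a keratin of the inner root sheath of the hair follicle. It was at 10.84, 11.60, 11.23, 11.19 and 11.13 at day 14, against 4.30, 5.36 and 6.41 (lowest, median, highest) at day 4, and at 12.41 ± 0.41 in control (SD, n = 3). The difference of 5.93 (standard error 0.28), or 60.9-fold, was the largest of any named gene (limma adjusted p = 4.43e-11). Day 4 values lay close to background, where the size of a fold depends on the background correction.

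Chac1, an enzyme that degrades glutathione and is induced by ATF4, was at 8.45, 8.92, 8.92, 8.77 and 8.48 at day 14, against 4.45, 4.84 and 5.60 (lowest, median, highest) at day 4 and 9.49 ± 0.15 in control (SD, n = 3). It was 13.7-fold higher (limma adjusted p = 4.84e-11). Chac1 was listed under the unfolded protein response, in which 9 of 13 genes were named and 4 were higher. The other 3 moved less, Asns by 1.77-fold, Hsp90b1 by 1.65-fold and Pdia4 by 1.48-fold, and Atf4 itself differed by 0.32 (adjusted p = 0.236), Trib3 by 0.01 (adjusted p = 0.981). Under median scaling Chac1 alone of these was called.

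Gjb2 encodes connexin 26, a gap junction protein of epithelia. It was at 7.78, 9.01, 9.11, 8.94 and 8.38 at day 14, against 4.28, 4.99 and 6.24 (lowest, median, highest) at day 4 and 10.38 ± 0.46 in control (SD, n = 3), a 10.6-fold difference (limma adjusted p = 1.2e-06). Gjb6, connexin 30, was 2.94-fold higher with the same order of groups. Lrrc15, a membrane protein found on activated fibroblasts and on hair follicle cells, was 9.15-fold higher (limma adjusted p = 1.78e-05), and its day 4 arrays ranged widely, 4.51 to 7.35. Slc7a8, an exchanger of neutral amino acids, was 5.46-fold higher (limma adjusted p = 7.17e-06). None of these genes overlapped between the days, which for all but Gjb6 was a condition of their choice.

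Most of the largest rises had no name. Of 54 probes at least 8-fold higher at day 14, 5 were named and 49 were not. Only probes detected on at least 10 arrays of the series could be named, while one undetected at day 4 can reach at most 8. Over all 7785 tested probes without a single gene name, 516 (6.63%) were higher and 453 (5.82%) lower. The 49 had a median log2 intensity of 8.39 at day 14, 4.32 at day 4 and 9.47 in control, and in 39 of them the control mean lay more than 1 above the day 4 mean. Of the 49, 31 were detected on no day 4 array, so they could not be named and passed the filter only through day 14. Set against the lowest detected signal on each array, 27 of these 31 were at least 8-fold higher, with a median of at least 13.5-fold. The 31 were selected for a large rise and for no detection at day 4, so this bound is descriptive only. In all, 76 probes were detected on every day 14 and no day 4 array, and 6 the other way round. Each passed the filter only through the day on which it was detected, so these counts are descriptive only.

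The second pattern held genes that were low in both other groups. Timp1, the secreted inhibitor of matrix metalloproteinases, was at 7.91, 7.26, 7.07, 7.82 and 8.40 at day 14, against 4.76, 4.91 and 5.35 (lowest, median, highest) at day 4 and 4.63 ± 0.25 in control (SD, n = 3). It was 6.55-fold higher (limma adjusted p = 4.19e-08). Lgals1, galectin-1, a sugar-binding protein that restrains T cells, was at 9.03, 8.89, 8.19, 9.35 and 9.60 at day 14 and at 5.54, 6.61 and 6.86 (lowest, median, highest) at day 4, or 6.10-fold higher (limma adjusted p = 7.3e-07). Of the other named galectins, Lgals7, an epidermal one, was 1.93-fold lower, and Lgals3, Lgals4 and Lgals8 were not called.

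Masp1, a protease of the lectin pathway of complement, was at 8.57, 7.56, 8.58, 8.36 and 8.63 at day 14, against 5.46, 5.74 and 6.44 (lowest, median, highest) at day 4. It was 5.76-fold higher (limma adjusted p = 1.24e-07). Csrp2, a LIM domain protein of smooth muscle and stellate cells, was 6.38-fold higher, with a control mean of 7.03. Plac8, a small cysteine-rich protein of myeloid cells, was 5.58-fold higher, and Amigo2, a cell adhesion protein, 5.16-fold higher. Both were close to background at day 4, with medians of 4.72 and 5.21.

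**Figure D4:**
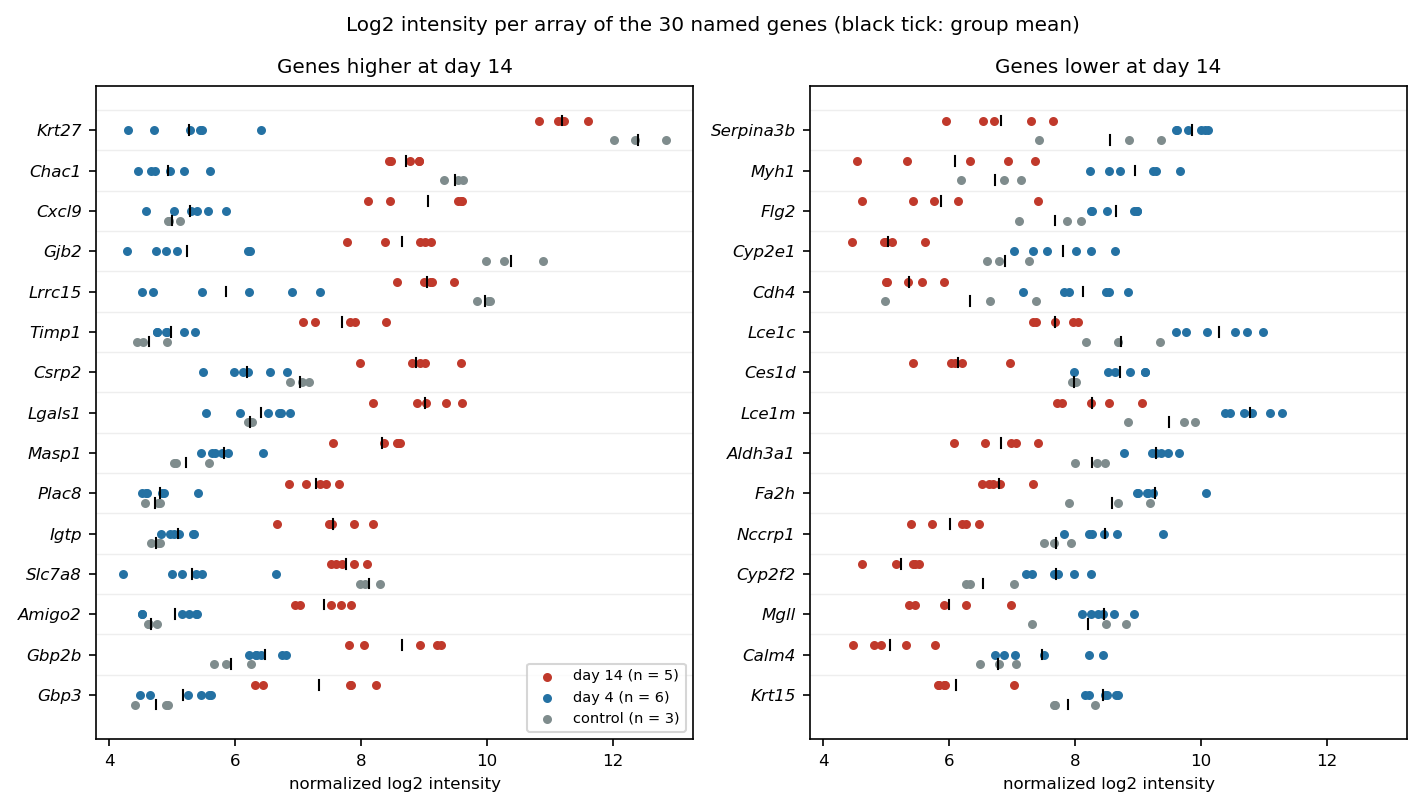
Normalized log2 intensity of the 15 highest and 15 lowest genes on each of the 5 day 14, 6 day 4 and 3 control arrays, with a black tick at each group mean. The genes were chosen to have no overlap between day 14 and day 4. For Krt27, Chac1, Gjb2, Lrrc15 and Slc7a8 the control arrays lie near or above day 14.

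Matrix genes did not move as a block. Of 24 listed for fibroblasts and matrix, 15 were named, with 3 higher and 4 lower, and the median was -0.16, which turned to 0.14 under median scaling, where 3 were called higher and none lower. Lox, which crosslinks collagen, was at 6.11, 6.83, 6.60, 7.56 and 6.20 at day 14, against 4.29, 4.85 and 5.73 (lowest, median, highest) at day 4, a 3.41-fold difference (limma adjusted p = 9.15e-05). Pdgfra, the growth factor receptor of fibroblasts, was at 8.75, 8.34, 8.38, 8.52 and 8.04 at day 14 and at 6.89, 7.12 and 7.49 (lowest, median, highest) at day 4, or 2.44-fold higher (adjusted p = 2.99e-05). Fibronectin, Fn1, was 1.65-fold higher (adjusted p = 0.00219). All 3 remained called under median scaling.

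Col1a1, which encodes a chain of collagen I, was at 7.21, 7.42, 7.21, 8.15 and 7.72 at day 14, against 8.23, 8.63 and 9.005 (lowest, median, highest) at day 4, and was 2.16-fold lower (limma adjusted p = 0.000417). The collagen-binding proteoglycan Lum was 1.81-fold lower and smooth muscle actin, Acta2, was 1.76-fold lower. Median scaling made none of these 3 calls. Col1a2, the other chain of collagen I, differed by -0.86 (adjusted p = 0.223), Col3a1 by -0.16 (adjusted p = 0.794) and Col5a1 by 0.35 (adjusted p = 0.41). Probes disagreed for Dcn, whose brightest probe differed by -0.44 (adjusted p = 0.331) while another was 2.24-fold lower (adjusted p = 0.000248), and for Col6a1, whose brighter probe missed the threshold at 0.74 (adjusted p = 0.0515) while the other was 1.83-fold higher (adjusted p = 0.00819). Of 14 named collagens, a family chosen after values were seen, 2 were lower, Col1a1 and Col17a1, and none was higher. The share lower is near the 14.4% of all genes. Col17a1, an anchor of basal keratinocytes, was 4.13-fold lower (adjusted p = 1.6e-06).

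Among proteases and their inhibitors 7 of 16 genes were named. Besides Timp1, Timp3 was 2.60-fold lower (limma adjusted p = 0.000367), a call lost under median scaling. Mmp14, Mmp2 and Mmp3 were not called, with differences of 0.26, -0.50 and 0.17. In the TGF-beta list, 7 of 14 were named, 2 were higher and 1 was lower. Inhba, which encodes the subunit of activin A, was at 6.998, 6.16, 6.43, 6.91 and 7.24 at day 14, against 4.44, 4.75 and 5.52 (lowest, median, highest) at day 4, and was 3.84-fold higher (adjusted p = 2.39e-06). Skil, an inhibitor of SMAD proteins, was 1.77-fold higher, and Tgfbi was 1.57-fold lower, but neither call held under median scaling. None of 8 named endothelial and angiogenesis genes was called in either direction, and Vegfa differed by -0.28 (adjusted p = 0.62). The endothelial median of -0.11 turned to 0.13 under median scaling.

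Genes of dividing cells rose modestly. Of 26 listed, 8 were named, 5 were higher and none was lower, with a median of 0.75, and under median scaling 3 were higher. Cdc20, which triggers the exit from mitosis, was at 5.72, 5.46, 5.76, 5.70 and 5.95 at day 14, against 4.38, 4.66 and 5.60 (lowest, median, highest) at day 4, or 1.89-fold higher (limma adjusted p = 0.00139). Birc5, survivin, was 1.89-fold higher and topoisomerase Top2a 1.69-fold higher. Mcm5, of the replication helicase, was 1.67-fold higher, and that call was lost without any of 5 single arrays, while Mcm2 and Mcm6 did not pass. The list mean was 5.79 to 6.00 on the day 14 arrays and 4.64 to 5.62 on the day 4 arrays, without overlap, and 5.31 to 5.60 in control. Day 4 replicate 2, the lowest, was the array with the fewest detected probes of its day. Of 15 named histone genes, chosen as a family after values were seen, 7 were higher and none was lower. These copies are near-identical, so the signal cannot be given to single genes. The H2A genes H2ac24, H2ac7, H2ac22, H2ac13, H2ac20 and H2ac10 were 2.08-fold to 3.82-fold higher, and all 6 remained called under median scaling. The other 8 histone genes that were not called included H2bc4, H2ac18 and H1f2, with differences of -0.365, -0.28 and -0.22.

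Genes of the outer epidermis were among those that fell. Of 21 genes listed for keratinocytes and the hair follicle, 12 were named, 8 were lower and 2 were higher, with a median of -1.18. Under median scaling 4 were lower, Krt15, Krt10, Lor and Krt5, and Krt27 was higher. The list mean overlapped between the days, at 8.38 to 9.15 at day 14 and 8.95 to 9.48 at day 4, and was 9.61 to 9.94 in control. Its summed intensity did not overlap, at 12433 to 20859 at day 14, 25288 to 35262 at day 4 and 29566 to 39014 in control. Day 14 replicate 2 had the highest mean of its day.

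Krt10 and Lor are the keratin and the envelope protein of the differentiating epidermis. Krt10 was at 11.57, 11.74, 10.96, 11.44 and 10.41 at day 14, against 12.84, 13.27 and 13.65 (lowest, median, highest) at day 4 and 12.66 ± 0.71 in control (SD, n = 3). It was 4.12-fold lower (limma adjusted p = 1.47e-05). Lor was 3.39-fold lower (adjusted p = 0.000203). Krt15, a keratin of basal cells and of the hair follicle bulge, was at 5.81, 7.03, 5.84, 5.94 and 5.92 at day 14, against 8.16, 8.49 and 8.68 (lowest, median, highest) at day 4, and was 5.07-fold lower (adjusted p = 3.1e-07). Basal keratinocyte genes fell too, the keratin Krt5 by 2.17-fold, Krt14 by 1.68-fold and the transcription factor Trp63 by 2.36-fold. The exceptions were Krt17, with a difference of 0.23 (adjusted p = 0.286), Sprr1a, a small proline-rich envelope protein that was 2.76-fold higher, and Krt27. For the envelope protein gene Ivl the probes disagreed in their call. The brighter one had a difference of -0.69 (adjusted p = 0.13), and a dimmer one was 1.625-fold lower (adjusted p = 0.0413). Sprr1a had a control mean of 9.63, above both days. Median scaling did not call Sprr1a, Krt14 or Trp63.

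The late cornified envelope genes lie together on chromosome 3 and encode proteins that are crosslinked into the surface of the epidermis. All 7 that were named, a family chosen after values were seen, were lower at day 14 without overlap, by 3.14-fold to 6.08-fold, and 4 remained called under median scaling. Lce1c was at 7.97, 8.04, 7.37, 7.68 and 7.33 at day 14, against 9.61, 10.32 and 10.98 (lowest, median, highest) at day 4 and 8.74 ± 0.59 in control (SD, n = 3). It was 6.08-fold lower (limma adjusted p = 1.1e-06), and Lce1m was 5.72-fold lower (adjusted p = 1.23e-06). For both, control lay between the days. Flg2, filaggrin-2, was at 5.43, 7.41, 5.76, 6.15 and 4.61 at day 14, against 8.26, 8.72 and 8.98 (lowest, median, highest) at day 4, and was 6.89-fold lower (adjusted p = 1.81e-05). Calm4, a calmodulin-like protein of skin, was 5.34-fold lower. The family is near-identical in parts, so single members are uncertain.

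Serpina3b, a serine protease inhibitor, had the largest fall of a named gene. It was at 7.30, 7.65, 5.95, 6.72 and 6.53 at day 14, against 9.60, 9.90 and 10.11 (lowest, median, highest) at day 4, and was 8.21-fold lower (limma adjusted p = 1.6e-06). Among the others of the 15 lowest, the cytochrome P450 gene Cyp2e1 was 6.87-fold lower, Cyp2f2 5.50-fold lower and the aldehyde dehydrogenase gene Aldh3a1 5.56-fold lower. Of 11 named cytochrome P450 genes, a family chosen after values were seen, 5 were lower and 6 were not called, with a median of -0.38, and under median scaling 2 were lower and 1 was higher. Cdh4, R-cadherin, was 6.78-fold lower, and its 3 control arrays spread widely, at 6.34 ± 1.23 (SD, n = 3). Nccrp1, an F-box-associated protein of epithelia, was 5.51-fold lower.

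Fat cell and lipid genes fell together. All 7 named adipocyte genes of 16 were lower, with a median log2 difference of -1.88. Under median scaling 2 remained called, Adipoq and Scd1, and the median was -1.54. The list mean was 7.12 to 7.80 at day 14 and 8.64 to 9.93 at day 4, without overlap, and 8.38 to 8.73 in control. Its summed intensity was 1201.9 to 2445.5 at day 14, 4292.6 to 9569.5 at day 4 and 3974.5 to 4880.9 in control. Adipoq, the hormone adiponectin that only fat cells make, was at 7.15, 7.06, 6.54, 6.09 and 6.18 at day 14, against 8.05, 8.69 and 10.14 (lowest, median, highest) at day 4. It was 4.50-fold lower (limma adjusted p = 4.09e-05). Plin4, which coats lipid droplets, was 3.86-fold lower, Car3 was 3.67-fold lower, Lpl was 3.55-fold lower and Lep, leptin, was 2.33-fold lower.

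Lipid synthesis had 5 of 14 genes named and 4 were lower. Under median scaling 2 were lower, Dgat2 and Scd1, and Scd1 is also in the adipocyte list. Scd1, which desaturates fatty acids in fat and sebaceous glands, was at 8.69, 9.90, 9.15, 9.43 and 8.56 at day 14, against 10.79, 11.27 and 11.54 (lowest, median, highest) at day 4, and was 4.27-fold lower (limma adjusted p = 1.43e-06). Dgat2, which makes triglycerides, was 2.85-fold lower, Elovl6 was 2.81-fold lower and Acly was 1.78-fold lower. Fa2h, which hydroxylates the fatty acids of epidermal and sebaceous lipids, was 5.53-fold lower, and the lipases Mgll and Ces1d were 5.48-fold and 5.90-fold lower. Of 4 named elongases of the Elovl family, chosen after values were seen, Elovl4, Elovl6 and Elovl1 were lower and Elovl5 was not called, and median scaling called none.

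Skeletal muscle genes varied widely within day 14, and fewer of them passed the test than not. Of 26 listed, 22 were named, 10 were lower and none was higher, with a median of -1.14. Over all genes 14.4% were lower. Under median scaling none of the 22 was called, and the median was -0.85. The list mean per array was 6.30 to 9.02 at day 14 and 8.45 to 9.66 at day 4, with overlap, and 6.93 to 7.77 in control. The day 14 values were 7.13, 9.02, 8.82, 7.80 and 6.30 for replicates 1 to 5. Replicates 2 and 3, the highest, also had the most detected probes of all 11 arrays, 13867 and 13693, and replicate 5, the lowest, had the fewest.

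Myh1, the fast myosin heavy chain 2X, was at 5.33, 7.36, 6.94, 6.33 and 4.53 at day 14, against 8.23, 8.97 and 9.67 (lowest, median, highest) at day 4 and 6.73 ± 0.50 in control (SD, n = 3). It was 7.21-fold lower (limma adjusted p = 6.36e-05), and under median scaling its adjusted p was 0.0513. Titin, Ttn, was 3.56-fold lower, tropomyosin Tpm2 3.44-fold lower and alpha-actinin-2, Actn2, 3.32-fold lower. A dimmer Ttn probe was not called, with a difference of -1.22 (adjusted p = 0.0696). Dimmer probes of Tpm2 and Actn2 were 1.83-fold and 3.98-fold lower. The brightest muscle genes did not pass, Acta1 with a difference of -0.62 (adjusted p = 0.405), Myl1 with -0.51 (adjusted p = 0.501) and Atp2a1 with -1.001 (adjusted p = 0.148).

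**Figure D5:**
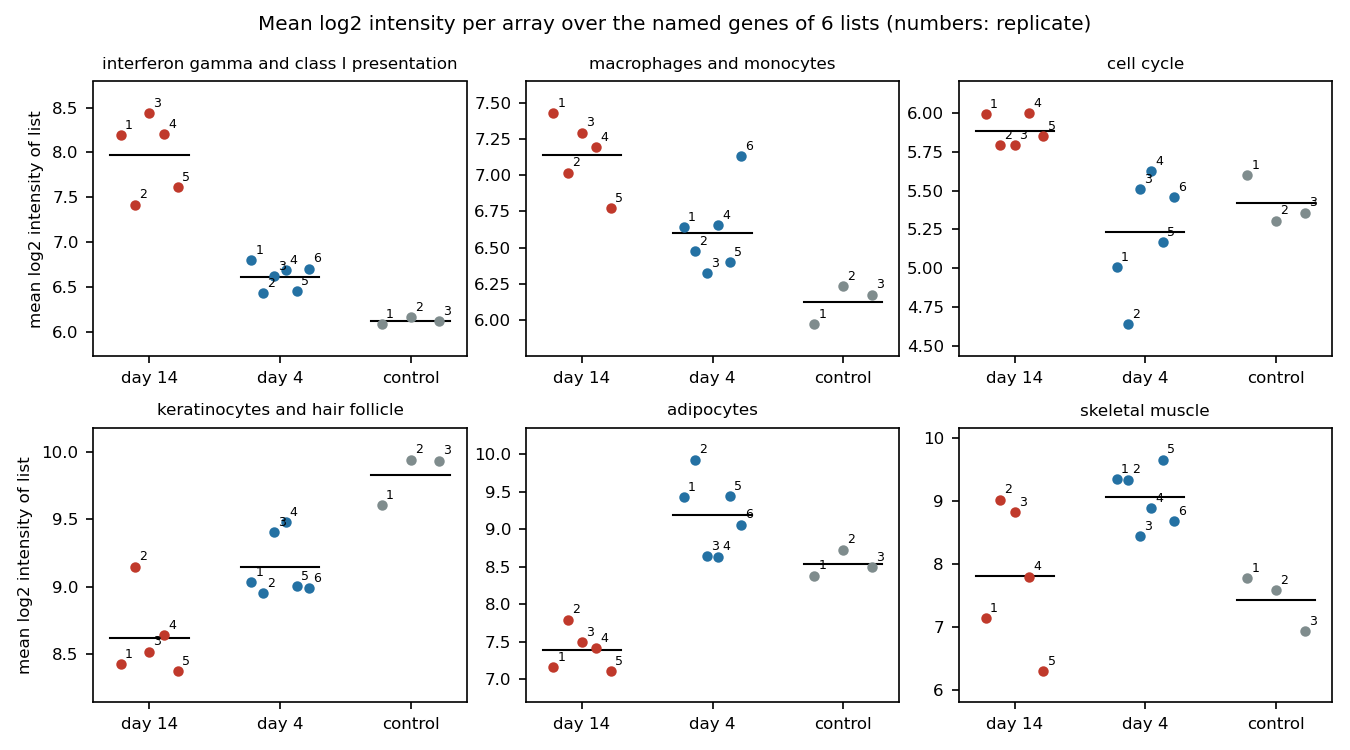
Mean log2 intensity of the named genes of 6 lists on each array, with the replicate number beside each point and a line at each group mean, for day 14 (n = 5), day 4 (n = 6) and control (n = 3). Interferon gamma, cell cycle and adipocyte means do not overlap between day 14 and day 4, while the skeletal muscle means at day 14 spread from 6.30 to 9.02.

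Fat and keratinocyte markers, and part of the muscle markers, were lower at day 14, where interferon genes and some macrophage genes were higher. The part of those tissue markers in the immune changes was not tested. As summed intensity over its 22 named genes, muscle stood at 4264.7 to 31325 at day 14, 16832 to 36690 at day 4 and 5599.1 to 13129 in control. Of the tumour cell candidates and mesothelial markers, only Pdpn was named among 11. It was at 8.97, 8.85, 8.83, 9.38 and 9.12 at day 14 and at 7.92, 8.38 and 9.19 (lowest, median, highest) at day 4, a difference of 0.54 (limma adjusted p = 0.094), so the labelled tumour could not be checked by its own markers.

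Energy metabolism and ribosomal protein genes had few calls. Of 17 named genes of oxidative phosphorylation only the citrate synthase gene Cs was called, 1.57-fold lower (limma adjusted p = 0.0239), and the median of -0.06 turned to 0.25 under median scaling. Of 11 named hypoxia and glycolysis genes only P4ha2, a collagen prolyl hydroxylase, was called, 1.75-fold lower (adjusted p = 0.0132), and the median of -0.28 turned to 0.10 under median scaling. Of 8 ribosomal protein genes 1 was higher, near the 13.1% of all genes, namely Rpl3 by 1.42-fold (adjusted p = 0.00956). Median scaling made none of these 3 calls. The haemoglobin genes, 3 of 8 named, were not called, with differences of -0.29 to -0.46. Of 3 named nerve genes, Pmp22 was 2.26-fold lower (adjusted p = 0.00291), also a call lost under median scaling.

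In 162 of 903 genes with several probes, the probes differed in their call, and in 1, Pde4dip, they were called in opposite directions. Unless another probe is mentioned, a gene's values are those of its brightest probe.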

How the data were processed

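Total RNA of the 14 samples was labelled as biotinylated cRNA with an Ambion kit for Illumina arrays, per the labels' protocols. The deposited table holds a bead array intensity for each probe and sample on a linear scale, not normalized, and a detection p-value beside it, per the file headers. A second deposited table holds log2 values for 7016 probes, with every array's median at 7.006, and was used as an alternative and to name probes. The scanner, its software and the scan dates are given in none of the sources used here, and the number of arrays limits the precision.

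The intensities were corrected with normexp, using negative controls worked back from those p-values (offset 16), then quantile normalized over the 14 arrays and taken to log2. Probes with a detection p under 0.05 on at least 3 of the 11 tumour arrays were tested. limma 3.58.1 (R 4.3.3) was fitted with the 3 groups and no covariate, and p-values were Benjamini-Hochberg adjusted over the 13868 probes tested. The fit was tested on simulated data with independent, normally distributed values and planted changes. The simulation did not copy the unequal detection of the arrays and did not test the normalization. Figures were drawn with matplotlib 3.10.9.

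Names came from GEO's platform annotation, which covers the 7016 probes. Of these, 6083 had 1 symbol, 3 had several and 930 had none, and 6075 had an ID in RefSeq (GRCm38.p6). The text names the 15 highest and 15 lowest genes called without overlap and detected on every array of the brighter day, then up to 4 called members of each list with the largest change and markers that did not pass. All other genes and the symbol families were chosen after their values were seen. The comparison, its members and the gene lists were chosen with earlier results of these data known. Alternatives covered background correction, scaling, the probe filter, left-out arrays, array weights, eBayes options, a replicate block and the deposited log2 values.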

Additional observations from a re-analysis of the deposited data

Results flagged for a closer look

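Single arrays stood apart from the other arrays of their day, by Dixon's test at its 95% critical value, in 9 of 204 groups of values tested, and chance gives about 1 in 20. Day 14 replicate 5 deviated from the median of its own day by a mean absolute log2 difference of 0.3507, while the other day 14 arrays ranged over 0.1423 to 0.1949. It was the lowest of its day for the mean of the endothelial list, at 5.197 against 5.671 to 5.863. It was also the lowest for Pmp22, a myelin protein, at 4.465 against 5.879 to 6.217, and for the protease inhibitor Timp3, at 6.329 against 7.447 to 7.83. It had the fewest detected probes of all arrays, 7059.

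Day 14 replicate 2 was the highest of its day for the keratin Krt15, at 7.029 against 5.815 to 5.936, and for Dgat2, which makes triglycerides, at 5.576 against 4.789 to 4.982. It was the lowest for the complement protease Masp1, at 7.556 against 8.361 to 8.626. Day 14 replicate 4 was the highest of its day for the C1 inhibitor Serping1, at 8.265 against 7.605 to 7.781. Day 4 replicate 3 was the highest of its day for Fa2h, at 10.07 against 8.978 to 9.242. Each of these genes kept its call without the array that stood apart.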

How the results depend on the processing

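Of 2565 probes called, 1273 higher and 1292 lower at day 14, median scaling called 689, with 576 higher and 113 lower. Of the 2565 calls, 668 held under it and none turned round. It gave 456 probes without overlap, against 1554, and 30 called list genes, against 86. Median scaling without the arrays with the fewest detected probes of each day, an alternative chosen after seeing the data, called 1606, of which 232 were lower. Without both arrays but with quantile normalization, 2436 probes and 88 list genes were called. Testing only probes detected on all 11 arrays gave 1424 calls, 733 higher and 691 lower, with 790 without overlap. An adjusted p under 0.01 gave 1588, with 781 higher and 807 lower, and a 2-fold minimum gave 831, with 359 higher and 472 lower.

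The 91 probes at least 4-fold higher and 44 at least 4-fold lower depended on the background correction. They were 35 and 8 without it, and 53 and 16 with normexp but no negative controls. Median scaling gave 16 at least 4-fold lower, and 10 without the same arrays. There were 12 at least 4-fold higher among probes detected on all 11 arrays, and the deposited log2 values gave 6 in each direction.

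With 1 array left out, calls numbered 2124 to 2550, higher calls 1050 to 1318, lower calls 1065 to 1350, and probes without overlap 1621 to 1900. At least 4-fold higher were 85 to 100 and at least 4-fold lower 38 to 68, the last without day 14 replicate 2. The difference in detected probes of 419.6 ranged from -300.2 without day 14 replicate 2 to 1402 without day 14 replicate 5, and was -37 at a detection p under 0.01. The difference in spread between arrays of a day was -0.008411, ranged from -0.04573 to 0.02589 with 1 array left out, and was 0.05202 under median scaling.

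Replicate numbers did not pair the samples: same-numbered arrays deviated with correlations of -0.296 to 0.165, none correlated best with its own number, and the replicate block called 2516 probes. Of the 82 genes whose values were followed, 46 kept their call under median scaling and 36 lost it. Some higher genes, such as Cd274 and Cd74, lost it with a larger difference, and Rpl3 with a smaller one. Lower genes such as Col1a1 lost it with a smaller difference. Signals near background limit the size, not the direction, of the largest folds. The deposited log2 columns of control 1 and control 2 each matched the other's intensities best (r = 0.9995 and 0.9994), which changes no difference between the days.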
